A study of Homo sapiens with 8 samples.

Results

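CYP4F8, AGR2, TNC, TMEM178B, HMP19, TRHDE, SLC7A8 and LGALS1 are 8 of the 58828 genes in the count tables of 2 prostate cancer cell lines with and without PAGE4. They were chosen by name, on their PAGE4 against vector differences in these same libraries, so those differences are given here as a description with no test. 22RV1 is a line with luminal prostate markers and DU145 is a line with little of them. Each line was transduced with an empty doxycycline-inducible lentiviral vector or with the same vector carrying an HA-tagged PAGE4 open reading frame, and transduced cells were kept as puromycin-selected pools. All cells were given doxycycline, vector cells included. Each of the 4 cultures was then given PBS or 200 mM H2O2 for 12 h, and RNA was sequenced from 1 library per condition, 8 libraries in all. A difference between 2 conditions therefore has no replicate check.

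The proteins made by these genes have different jobs. CYP4F8 is a cytochrome P450 that hydroxylates prostaglandins and related fatty acids and is known from the seminal vesicles and prostate. AGR2 is a protein disulfide isomerase of the endoplasmic reticulum that helps fold secreted proteins such as mucins, and it is known from prostate tumours. TNC encodes tenascin-C, a large glycoprotein of the extracellular matrix, and LGALS1 encodes galectin-1, a small lectin that binds galactose-containing sugars. SLC7A8 is LAT2, a transporter of neutral amino acids that works as a dimer with the SLC3A2 heavy chain. TRHDE is a membrane peptidase that degrades thyrotropin-releasing hormone, HMP19 (now NSG2) is a neuronal protein of endosomal vesicles, and TMEM178B is a membrane protein about which little is known. PAGE4 itself is a disordered cancer/testis protein of the prostate.

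The name given to the group, genes shifted with PAGE4 across the lines, held in both lines for TNC and LGALS1 only. In 22RV1 cells the normalized counts of all 8 genes averaged 10 or more, but 6 of the 8 were under that level in DU145 cells, where they could not be compared. Normalized counts are raw counts divided by DESeq2 size factors, which correct for library depth within a line. PAGE4 was read 1489 and 1179 times in the 22RV1 PAGE4 libraries with PBS and H2O2, and 1001 and 1431 times in those of DU145. The 4 vector libraries held 0 or 1 PAGE4 read each.

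Total counts ran from 25482984 to 43310401 per library, and intervals and floors below cover counting error only. The 22RV1 vector and PAGE4 libraries differed in more than PAGE4. Of 16 non-luminal and mesenchymal markers, none was at 0 in every library of a line. Their summed level was 5094 CPM, that is per 1000000 counts of the library, with PBS and 2641 with H2O2 in the vector cells of 22RV1, against 519.9 and 688.0 in 22RV1 PAGE4 cells and between 4899 and 5655 in DU145. FLNA, an actin crosslinker, held 4731 CPM of the 5094, and 293.2 CPM in the PAGE4 cells with PBS. Of the 14 markers of the list measured in 22RV1, 4 were lower and 2 higher by more than 1.5-fold with PAGE4 under PBS. Their median log2 fold change was -0.05, and 19.7% of all genes were past that limit. Under H2O2, 7 were lower and 1 higher at a median of -0.35, beside 23.2% of all genes. S100A6, a calcium-binding protein, went the other way with 13.5 CPM in vector cells and 32.9 in PAGE4 cells under PBS, and VIM, the mesenchymal filament protein, was at 23.3 CPM in 22RV1 vector cells and 375.7 in DU145 vector cells with PBS. The summed level of 12 luminal markers with PBS was 2579 CPM in vector cells of 22RV1, 2463 in its PAGE4 cells and 43.8 to 46.4 in DU145. With H2O2 it was 972.7 and 1294 CPM in the vector and PAGE4 cells of 22RV1. The 10 fibroblast markers summed to no more than 31.3 CPM in any library, with POSTN at 0 in every 22RV1 library and DCN at 0 in every DU145 library. The part of these differences between the 22RV1 cultures in the results below was not tested.

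Promoter sequence is shown for the 2 genes that were lower with PAGE4 in 22RV1 and for the most abundant of the genes that were higher and had an exon-free window. Each run is the 250 bases before a RefSeq start site on GRCh38.p14, read 5′ to 3′ on the strand of the gene, and capitals mark the only motif match found in them. The window of CYP4F8 is chr19:15614968-15615217 on the plus strand, that of AGR2 is chr7:16805000-16805249 on the minus strand and that of TMEM178B is chr7:141073814-141074063 on the plus strand.
CYP4F8: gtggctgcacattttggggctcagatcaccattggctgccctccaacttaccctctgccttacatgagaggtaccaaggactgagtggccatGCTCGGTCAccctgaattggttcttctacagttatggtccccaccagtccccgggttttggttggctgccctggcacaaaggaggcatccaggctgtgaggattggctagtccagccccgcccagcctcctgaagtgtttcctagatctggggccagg
AGR2: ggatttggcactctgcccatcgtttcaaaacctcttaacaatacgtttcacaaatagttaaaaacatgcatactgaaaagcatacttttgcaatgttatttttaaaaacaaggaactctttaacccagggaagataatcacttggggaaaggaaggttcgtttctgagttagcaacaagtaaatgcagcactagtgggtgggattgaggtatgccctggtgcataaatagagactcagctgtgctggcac
TMEM178B: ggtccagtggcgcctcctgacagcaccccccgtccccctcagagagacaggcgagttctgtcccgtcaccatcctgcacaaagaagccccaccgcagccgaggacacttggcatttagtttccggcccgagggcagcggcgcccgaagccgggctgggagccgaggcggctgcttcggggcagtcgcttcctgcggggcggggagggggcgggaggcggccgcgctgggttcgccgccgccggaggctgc
The capitals in CYP4F8 match the antioxidant response element core TGACNNNGC on the opposite strand, with the first base 158 bases before the start site. Of 35116 promoter windows of this length, 10.9% hold that motif, so a match alone is common. Windows were found for 6 of the 8 genes, with 9 windows in all, and the only other match was TGATTCA, an AP-1 motif written TGANTCA, 134 bases before 1 of the 4 SLC7A8 start sites. AP-1 motifs were in 6.57% of all windows. The 8 AP-1 factors listed summed to 195.4, 704.3, 214.9 and 464.4 CPM in 22RV1 (vector PBS, vector H2O2, PAGE4 PBS, PAGE4 H2O2). In DU145 these sums were 386.6, 962.1, 479.0 and 1027 CPM. With PAGE4 in 22RV1, 1 of the 8 was lower by more than 1.5-fold under PBS and 4 under H2O2, and 0 were higher. All genes past that limit were 19.7% and 23.2%. In DU145, 0 were lower and 2 higher under PBS, beside 15.3% of all genes, and 0 were past it under H2O2. The exact letters TATAAA, searched for as the TATA box, are in 10.7% of all windows and were in none of these 9. Other forms of the TATA box were not searched for. The base composition of the 3 windows shown differed, with 57.6% G and C in CYP4F8, 40.4% in AGR2 and 72.8% in TMEM178B.

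The level of each gene without PAGE4 or H2O2 set the lines apart. Levels between genes were compared per length, as RPKM, which is CPM divided by the exon length in kilobases. In 22RV1 vector cells with PBS, LGALS1 was highest at 95.9 RPKM, above 98.4% of the 16805 genes with at least 10 reads. AGR2 followed at 33.5, TMEM178B at 12.3, CYP4F8 at 7.37, TNC at 4.83 and SLC7A8 at 3.35 RPKM. HMP19 at 0.745 and TRHDE at 0.213 RPKM were the lowest, with TRHDE above 10.7% of genes. With 1 library for this condition the order has no replicate spread. In DU145 vector cells with PBS, LGALS1 stood at 54.3 RPKM and TNC at 1.57 RPKM, and the other 6 genes had no more than 8 reads.

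**Figure D1:**
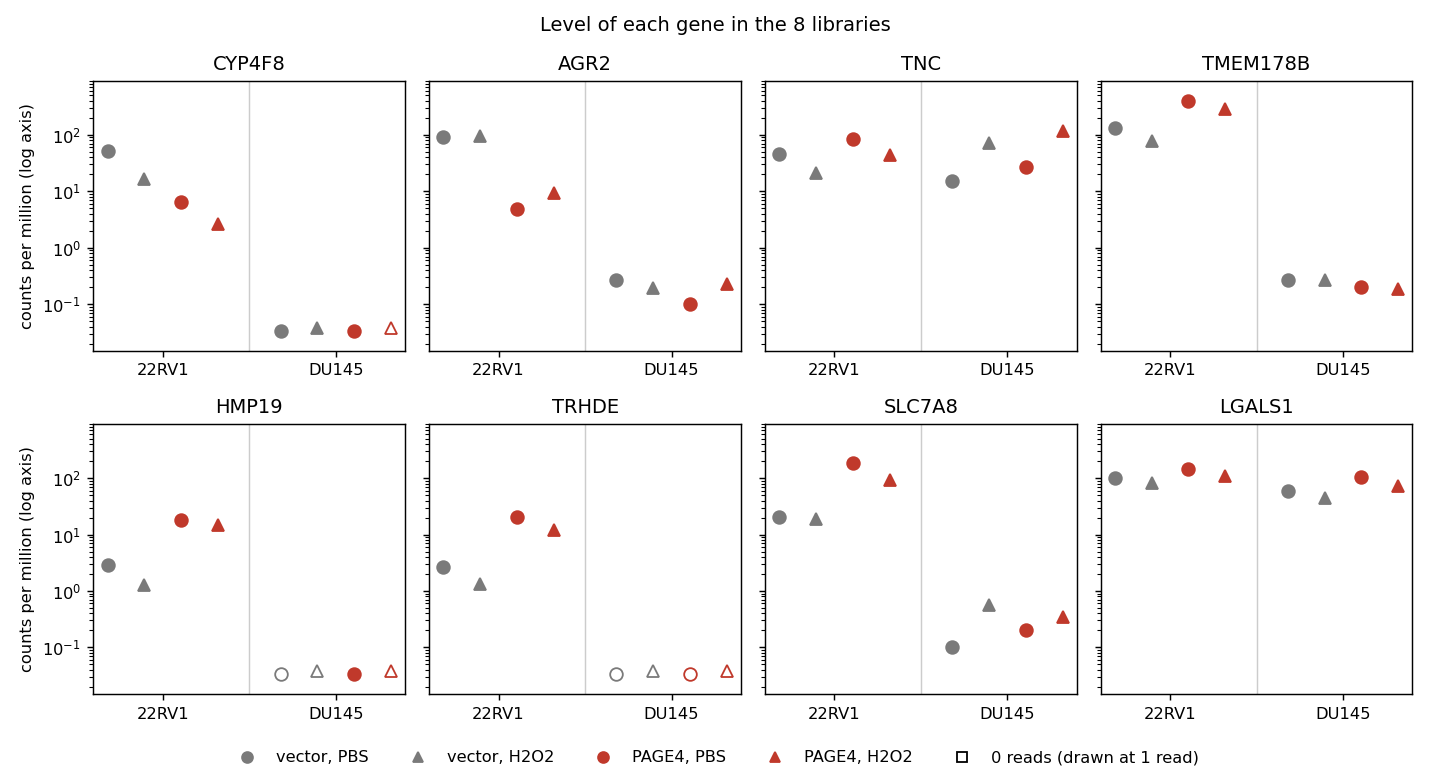
Level of each of the 8 genes in each library, in CPM on a log axis, with grey for vector cells, red for PAGE4 cells, circles for PBS, triangles for H2O2 and open symbols for 0 reads drawn at the height of 1 read. TNC and LGALS1 are seen in both lines, and the other 6 genes sit at 15 reads or fewer in every DU145 library.

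CYP4F8 had 2251 reads in 22RV1 vector cells with PBS and 1 read in the matching DU145 library, a CPM ratio of 1565 with a 95% interval of 281 to 61830. TMEM178B was 499-fold higher in 22RV1 (253 to 1156), AGR2 348-fold (177 to 807) and SLC7A8 202-fold (68.8 to 980). HMP19 and TRHDE had 0 reads in the DU145 vector library with PBS. Against a floor of 3 counts in that library, HMP19 was 28.7-fold and TRHDE 26.2-fold higher in 22RV1. The lower ends of their 95% counting intervals were 23.02 and 20.95. LGALS1 was 1.77-fold higher in 22RV1 (1.67 to 1.87), and TNC 3.07-fold higher (2.77 to 3.41).

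Over all 8 libraries, with each construct and treatment as a block, the line difference was tested with the quasi-likelihood test of edgeR and Benjamini-Hochberg adjustment over 22418 genes. It called 60.5% of all genes tested. CYP4F8, AGR2, TMEM178B, HMP19, TRHDE and SLC7A8 passed the filter on low counts only through 22RV1, so the direction was fixed by the filter and no test is given for these 6. For LGALS1 the log2 difference was 0.49 (SE 0.10) with an adjusted p of 0.0038, and this call was lost in the PAGE4 libraries alone (log2 0.34, adjusted p = 0.20). TNC did not pass, with a log2 difference of -0.17, an interval of -1.67 to 1.34 and an adjusted p of 0.84. Its order turned with treatment. In 22RV1 cells it had 46.3 CPM with PBS in vector cells and in DU145 15.1, whereas with H2O2 these were 21.5 and 71.6 CPM. As the 4 libraries of a line share 1 cell line, these p-values describe the spread between these libraries.

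CYP4F8 and AGR2 were the 2 genes lower in 22RV1 cells with PAGE4. CYP4F8 had 2251 reads with PBS and 575 with H2O2 in vector cells, and 258 with PBS and 67 with H2O2 in PAGE4 cells. Both PAGE4 libraries lay below both vector libraries. On the normalized scale, with 0.5 added, CYP4F8 was 7.71-fold lower with PAGE4 under PBS, a log2 fold change of -2.95 with a 95% counting interval of -3.14 to -2.76. Under H2O2 it was 6.26-fold lower, at -2.65 (-3.04 to -2.29). AGR2 counts, in the order vector PBS, vector H2O2, PAGE4 PBS and PAGE4 H2O2, were 4007, 3332, 191 and 236. Under PBS this was the largest PAGE4 difference among the 8 genes, 18.5-fold lower (log2 -4.21, -4.43 to -4.01) and under H2O2 AGR2 was 10.3-fold lower (log2 -3.37, -3.57 to -3.18). In DU145, CYP4F8 had 0 or 1 read per library and AGR2 between 3 and 8, so a PAGE4 difference was not detectable at this depth. In these bulk libraries of pooled cells, fewer cells with a transcript and less of it per cell cannot be told apart.

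The 5 genes that were higher with PAGE4 by more than 1.5-fold in 22RV1 cells under both treatments were SLC7A8, TRHDE, HMP19, TMEM178B and TNC. SLC7A8 counts, in the same order, were 870, 637, 7318 and 2395. It was 9.50-fold higher under PBS (log2 3.25, 3.15 to 3.35) and 5.13-fold higher under H2O2 (log2 2.36, 2.23 to 2.49). Both PAGE4 libraries stood above both vector libraries. The counting intervals of the 2 treatments did not overlap for SLC7A8, nor did they for AGR2, HMP19 and TMEM178B in 22RV1. With 1 library per condition this has no test. The share of all genes with such intervals was not counted, so nothing is read from this. TRHDE counts were 113, 46, 787 and 311, and its log2 fold changes were 2.97 (2.69 to 3.27) under PBS and 3.19 (2.76 to 3.69) under H2O2. HMP19 counts were 124, 43, 706 and 377. Its log2 fold change was 2.68 (2.41 to 2.97) under PBS and 3.57 (3.12 to 4.07), or 11.8-fold, under H2O2. For these 2 genes, the low counts in the vector cells set the width of the intervals.

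TMEM178B counts in 22RV1 were 5742, 2653, 15717 and 7309. It was 3.09-fold higher with PAGE4 under PBS (log2 1.63, 1.59 to 1.67) and 3.76-fold higher under H2O2 (log2 1.91, 1.85 to 1.98). In DU145 it had 5 to 8 reads per library, SLC7A8 had 3 to 15, and HMP19 and TRHDE had 1 read between them over the 4 libraries.

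TNC and LGALS1 were the genes that could be compared in both lines. TNC counts in 22RV1 were 2006, 740, 3377 and 1123, and those in DU145 were 454, 1870, 811 and 3044. Within each treatment the PAGE4 library was the higher one in each line. The log2 fold changes were 0.93 (0.85 to 1.01) and 1.05 (0.92 to 1.19) in 22RV1 under PBS and H2O2, and 0.86 (0.69 to 1.03) and 0.71 (0.63 to 0.79) in DU145. LGALS1 counts were 4431, 2772, 5676 and 2816 in 22RV1, and 1744, 1173, 3050 and 1926 in DU145. Its log2 fold changes were 0.53 (0.48 to 0.59) and 0.47 (0.40 to 0.55) in 22RV1, under 1.5-fold, and 0.83 (0.74 to 0.91) and 0.72 (0.62 to 0.83) in DU145, over 1.5-fold. LGALS1 was thus the 1 gene with a larger ratio in DU145 than in 22RV1 under both treatments.

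**Figure D2:**
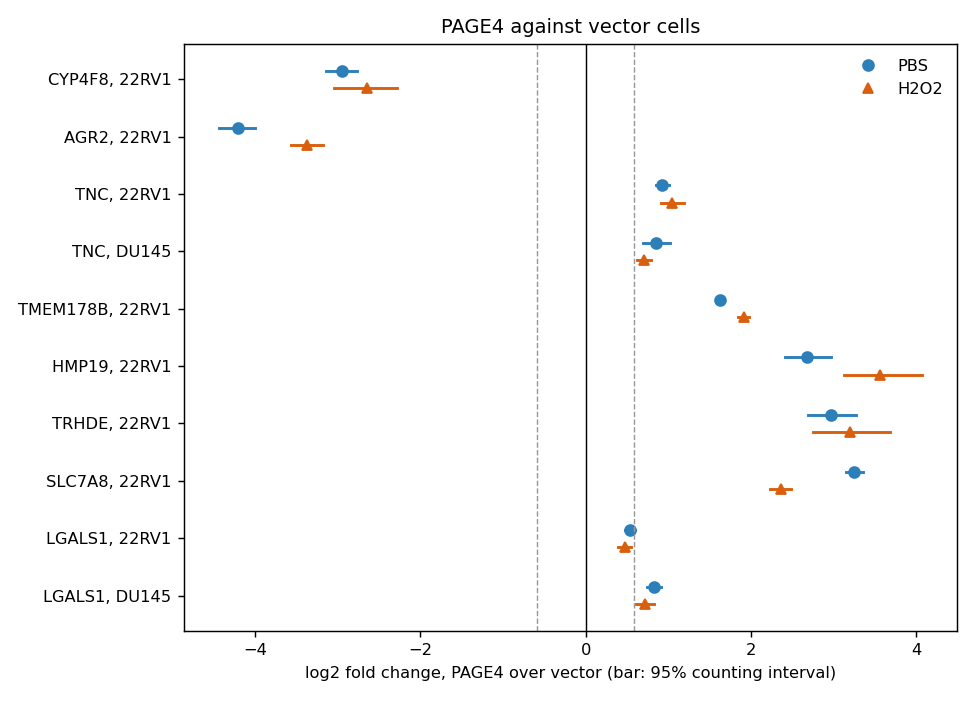
Log2 fold change of PAGE4 over vector cells for each gene in each line where its normalized counts averaged 10 or more, circles for PBS and triangles for H2O2, with bars for the 95% counting interval and dashed lines at 1.5-fold. CYP4F8 and AGR2 lie to the left, between -2.65 and -4.21, and the other 6 genes to the right. All 20 intervals lie off 0, but the genes were chosen on this contrast, so nothing is read from that.

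Past 1.5-fold, 7 of 8 members were counted in 22RV1 under PBS, where 19.7% of all 20264 genes with a mean of at least 10 were past it, and 7 of 8 under H2O2, where 23.2% were. In DU145 it was 2 of 2 under each treatment, against 15.3% under PBS and 15.2% under H2O2 of 18088 genes. Since the members were picked on this contrast, nothing is read from those shares. Over all genes the median log2 fold change lay between 0.00 and 0.02 in the 4 pairs.

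H2O2 against PBS was a different contrast from the one that chose the genes. It was tested across the 4 cultures, with the culture as block, by the same edgeR test. Of 22418 genes, 20.1% were called and 3 of the 8 members were, all 3 lower with H2O2. CYP4F8 fell by 1.59 on the log2 scale (SE 0.24, adjusted p = 0.0052), TMEM178B fell by 0.69 (SE 0.14, adjusted p = 0.014) and LGALS1 fell by 0.49 (SE 0.08, adjusted p = 0.0074). For CYP4F8 and TMEM178B the result rests on 22RV1, as the DU145 libraries hold 8 reads or fewer of each. The CYP4F8 call was lost without the 22RV1 vector pair (adjusted p = 0.14), and that of TMEM178B without either 22RV1 pair (0.067 and 0.13). Blocking on the line in place of the culture, all 3 calls were lost, at adjusted p = 0.18 for CYP4F8, 0.43 for TMEM178B and 0.12 for LGALS1.

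In 22RV1 vector cells the CYP4F8 log2 change with H2O2 was -1.74, and in PAGE4 cells -1.44. PAGE4 and H2O2 both went with less CYP4F8, and the highest and the lowest of the 4 normalized counts were 21.0-fold apart. TMEM178B changed by -0.89 in vector cells and -0.61 in PAGE4 cells. LGALS1 was lower with H2O2 in all 4 cultures, by -0.45 and -0.51 in 22RV1 vector and PAGE4 cells and by -0.40 and -0.50 in those of DU145. The LGALS1 response did not differ detectably between the lines, with a difference of -0.003 and an interval of -0.26 to 0.25.

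TNC went in opposite directions in the 2 lines. With H2O2 its log2 change was -1.21 (vector) and -1.09 (PAGE4) in 22RV1, but 2.22 (vector) and 2.07 (PAGE4) in DU145. Every 22RV1 value was below 0 and every DU145 value above it. The difference between the lines, DU145 minus 22RV1, was 3.26 (SE 0.14, adjusted p = 1.165e-10 by edgeR's quasi-likelihood test), in a test that called 16.3% of all genes. The vector and PAGE4 cultures of a line stand in for replicates, so this p-value describes the spread between these libraries. The same test called SLC7A8 at 2.23 (SE 0.70, adjusted p = 0.037), but on 3, 15, 6 and 9 reads in DU145. The effect common to the cultures was 0.46 for TNC, with an adjusted p of 0.66.

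SLC7A8, AGR2 and HMP19 changed unequally in the 2 cultures of 22RV1. With H2O2, SLC7A8 had a log2 change of -0.22 (vector) and -1.11 (PAGE4), and AGR2 one of -0.04 (vector) and 0.80 (PAGE4). HMP19 was at -1.29 (-1.84 to -0.79) in vector and -0.41 (-0.59 to -0.22) in PAGE4 cells. With 1 library for each condition these inequalities have no test. TRHDE was at -1.06 and -0.84. TRHDE and HMP19 did not pass the common test (adjusted p = 0.073 and 0.13). AGR2 (log2 0.31, adjusted p = 0.75) and SLC7A8 (log2 -0.35, adjusted p = 0.52) did not pass it.

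**Figure D3:**
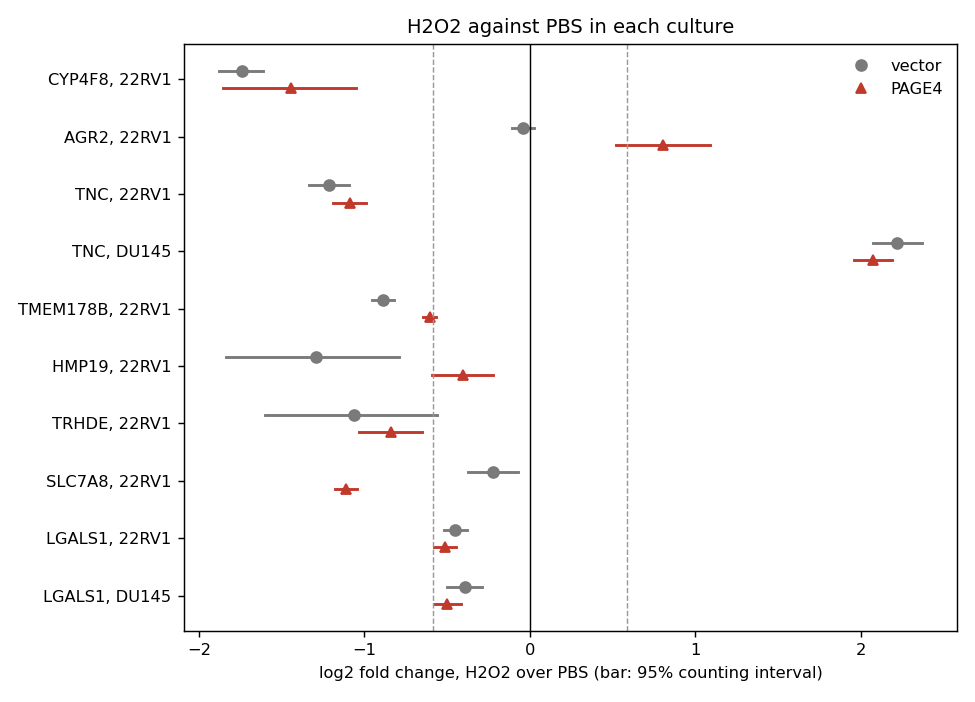
Log2 fold change of H2O2 over PBS in each culture for genes whose normalized counts averaged 10 or more in the line, grey circles for vector and red triangles for PAGE4 cells, with bars for the 95% counting interval and dashed lines at 1.5-fold. TNC stands at 2.22 and 2.07 in DU145 and at -1.21 and -1.09 in 22RV1.

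Genes lying beside the members were examined next. AGR2 lies at chr7:16791811-16833433 on the minus strand, in GENCODE 44 coordinates on GRCh38. Its close relative AGR3, 26.0 kb away, had 32, 32, 1 and 0 reads in 22RV1 in the order vector PBS, vector H2O2, PAGE4 PBS and PAGE4 H2O2, and 0 in DU145. AGR3 was thus low where AGR2 was low. On the other side, TSPAN13, a tetraspanin 7.28 kb from AGR2, had log2 fold changes of -0.16 and -0.30, and BZW2, a translation regulator, 0.17 and -0.09. AHR, the aryl hydrocarbon receptor beyond AGR3, had 0.07 and -0.59.

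TRHDE lies at chr12:72087266-72670758 on the plus strand and shares exon bases with TPH2 and with its antisense RNA TRHDE-AS1. TRHDE-AS1 counts were 168, 80, 735 and 382 in 22RV1, with log2 fold changes of 2.30 and 2.70 for PAGE4, near those of TRHDE. TPH2, a serotonin synthesis enzyme, had 2, 0, 26 and 15 reads. The strand setting of the counting is not given in the sources used here, so reads of overlapping genes may not be told apart and the TRHDE values are uncertain to that degree. RAB21 and TBC1D15, the nearest measured genes on the lower side, had differences between -0.20 and 0.26.

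HMP19, or NSG2, lies at chr5:174045706-174243501 on the plus strand, 39.6 kb from C5orf47. C5orf47 had 17, 8, 99 and 59 reads, log2 fold changes of 2.68 and 3.25 that were close to the 2.68 and 3.57 of HMP19. The pseudogene RPL12P22 between them had 19, 2, 35 and 15 reads, and SFXN1, a mitochondrial serine transporter on the far side, had 0.15 and 0.14. TMEM178B, at chr7:141074064-141480380 on the plus strand, holds the pseudogene NDUFB10P2, which had 7, 15, 39 and 36 reads. BRAF, MRPS33, AGK and KIAA1147 beside it had log2 fold changes between -0.21 and 0.38.

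CYP4F8 is at chr19:15615218-15630639 (plus strand), in a cluster of CYP4F genes. TNC is at chr9:115019575-115118207 (minus), SLC7A8 at chr14:23125295-23183674 (minus) and LGALS1 at chr22:37675636-37679802 (plus). C14orf119 and ACIN1, 24.8 and 29.7 kb from SLC7A8, differed by no more than 0.21. RNF212B, 1.64 kb from it, had 0.59 and 0.53. Of the 29 measured genes beside the 8 members in 22RV1, 7 were past 1.5-fold under PBS (4 higher, 3 lower) and 7 under H2O2 (5 higher, 2 lower), beside 19.7% and 23.2% of all genes. Those against the member beside them included TNFSF15, a cytokine gene beside TNC (-0.72 under PBS), and KCNC2, a potassium channel gene beside TRHDE (-1.92 under PBS on 36 and 8 reads). The 3 genes overlapping a member were all higher, but TMEM178B and TRHDE, the members they overlap, were chosen on this contrast. TPH2 and TRHDE-AS1 share exon bases with TRHDE, so their reads may be those of TRHDE. TPH2 had 2 (PBS) and 0 (H2O2) reads in 22RV1 vector cells. It passed the count minimum only through the PAGE4 cells, so its direction was fixed by the minimum. Nothing is read from the direction of these 3 genes.

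**Figure D4:**
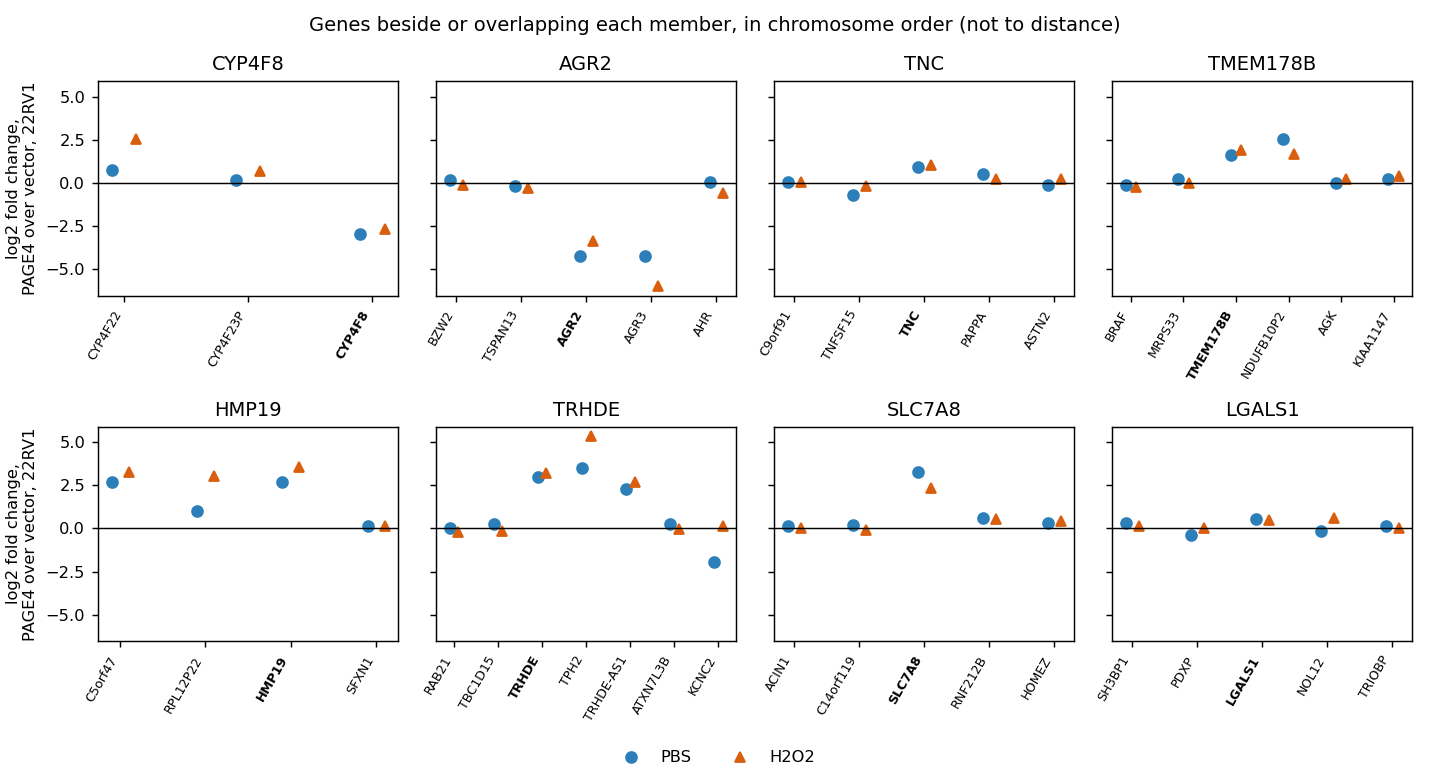
Log2 fold change of PAGE4 over vector in 22RV1 cells for each member (bold) and the nearest measured genes on either side or overlapping it, in chromosome order and not to distance, circles for PBS and triangles for H2O2. AGR3 is low beside AGR2, and C5orf47 is high beside HMP19. TRHDE-AS1 and TPH2, which share exon bases with TRHDE, are also high, but nothing is read from their direction.

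Relatives of each member came from lists written with earlier results of these data known. SLC7A8 was set beside 14 SLC7 transporters and SLC3 heavy chains, 10 of them measured in 22RV1. With PAGE4 under PBS, 2 of the 10 were higher and 1 was lower by more than 1.5-fold, and the 2 were SLC7A5 and SLC3A2, where 19.7% of all genes were past that limit. Under H2O2, 2 were higher, SLC7A5 and SLC7A2 (0.81), and 1 was lower, SLC3A1 (-1.72), beside 23.2% of all genes. SLC7A5 is LAT1, the other large neutral amino acid carrier that pairs with SLC3A2. SLC7A5 stood at 1514, 1426, 4155 and 3443 CPM in 22RV1, log2 fold changes of 1.49 and 1.29. SLC3A2 stood at 365.3, 710.8, 896.5 and 985.0 CPM, with 1.33 under PBS and 0.49 under H2O2. In DU145, SLC7A5 differed by 0.32 and -0.05, and SLC3A2 by 0.36 and 0.13. SLC7A11, the cystine carrier that also binds SLC3A2, differed by -0.07 and -0.47 in 22RV1.

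With H2O2, 3 of the 10 relatives tested rose over the cultures and 1 fell, where 20.1% of all genes were called. SLC3A2 rose by 0.67 (edgeR adjusted p = 0.023), SLC7A1, a carrier of cationic amino acids, by 0.54 (0.0077) and SLC7A6 by 0.50 (0.045), while the log2 change of SLC7A2 was -1.19 (0.0027).

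**Figure D5:**
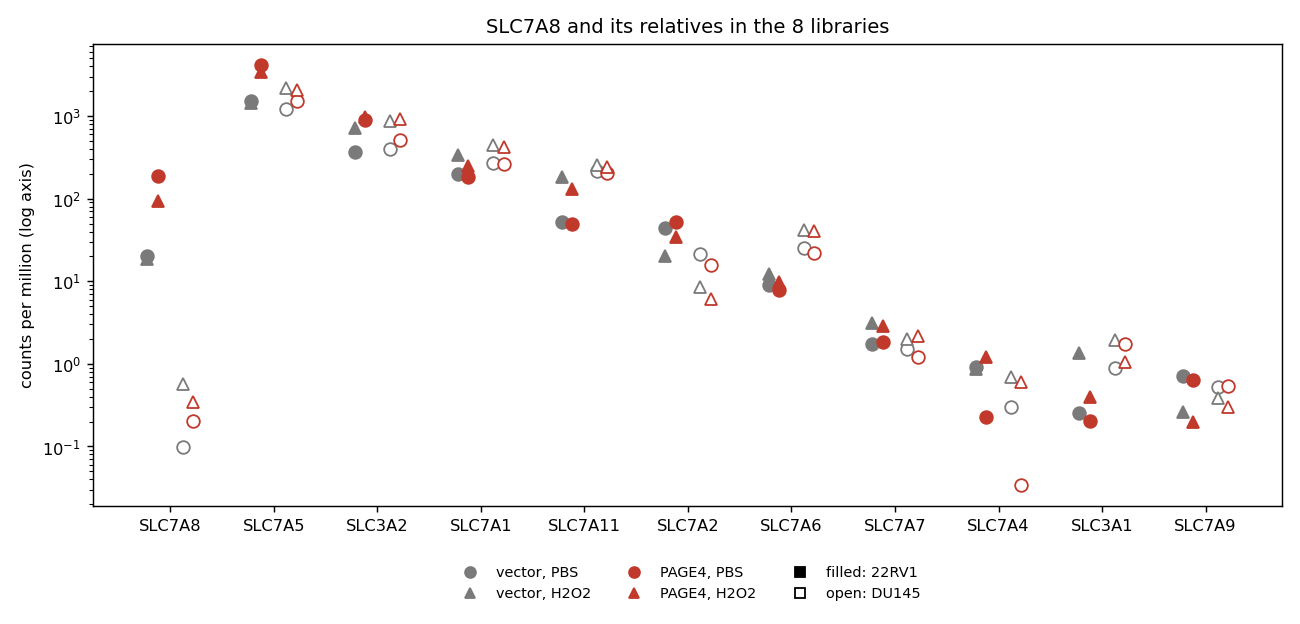
Level of SLC7A8 and of those relatives whose normalized counts averaged 10 or more in a line, in CPM on a log axis, filled for 22RV1 and open for DU145, grey for vector and red for PAGE4, circles for PBS and triangles for H2O2. In 22RV1, SLC7A8 and SLC7A5 stand higher in both PAGE4 libraries than in both vector libraries.

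CYP4F11, CYP4F3 and CYP4F12 had the reverse line pattern to CYP4F8, and CYP4F22 had the same pattern as CYP4F8. CYP4F11, which hydroxylates vitamin K and fatty acids, had 2261 to 2615 reads in each DU145 library and 0 to 2 in 22RV1. CYP4F3, which inactivates leukotriene B4 and lies 10.3 kb from CYP4F8, had 706 to 811 reads in DU145 and 1 to 11 in 22RV1. The PAGE4 log2 fold changes of CYP4F11 and CYP4F3 in DU145 lay between -0.18 and 0.00. CYP4F12 had 46, 15, 27 and 13 reads in DU145 (vector PBS, vector H2O2, PAGE4 PBS, PAGE4 H2O2) and 1 to 4 in 22RV1. Its PAGE4 log2 fold changes in DU145 were -0.74 under PBS and -0.19 under H2O2. CYP4F22, 62.9 kb from CYP4F8, had 22, 1, 33 and 6 reads in 22RV1 and 0 in DU145, and its PAGE4 log2 fold changes in 22RV1 were 0.74 and 2.52, against the direction of CYP4F8.

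For AGR2, 18 of 21 disulfide isomerases and related proteins were measured in 22RV1. With PAGE4 under PBS, 2 were higher (CASQ1 and PDIA2) and 1 lower, AGR3, and under H2O2, 2 were lower, AGR3 and CASQ1. Of all genes, 19.7% were past 1.5-fold under PBS and 23.2% under H2O2. P4HB, PDIA3 and PDIA6, abundant isomerases, differed by between -0.21 and 0.00 in 22RV1, and PDIA4, also abundant, by -0.50 under PBS and -0.19 under H2O2. With H2O2, 4 of the 18 tested fell and 0 rose, where 20.1% of all genes were called. PDIA4 had a log2 change of -1.22 (adjusted p = 0.0050), and the others were DNAJC10, PDIA6 and PDIA3. The H2O2 effect differed between the lines for 7 of 18, all 7 higher in DU145, where 16.3% of all genes were called, 1691 higher and 1964 lower in DU145.

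The TNC list held other tenascins and receptors that bind tenascin-C. PTPRZ1, a receptor phosphatase that binds it, had 86, 79, 242 and 171 reads in 22RV1, log2 fold changes of 1.66 and 1.56 with PAGE4, and 3 reads or fewer in DU145. EGFR, the growth factor receptor, went the other way with -2.11 and -1.59 in 22RV1, and 0.02 and -0.03 in DU145. ITGB1 and ITGAV, integrin subunits, differed by no more than 0.11 in 22RV1. Of the 9 measured in 22RV1, 1 was higher and 2 lower by more than 1.5-fold under PBS, beside 19.7% of all genes. Under H2O2, 2 were higher and 2 lower, beside 23.2%. Besides PTPRZ1 and EGFR, these were ITGA9 (-1.14 under PBS), CNTN1 (1.48 under H2O2) and SDC4 (-0.90 under H2O2). With H2O2, 1 of 10 tested rose, SDC4 (log2 1.02, adjusted p = 0.0019 by edgeR), and 3 fell, CNTN1, ITGB1 and ITGAV. That test called 20.1% of all genes. Of the 10 tested, EGFR was the 1 gene called with a higher H2O2 effect in DU145 (0.82, adjusted p = 0.000605 by edgeR), as TNC was. The effect was called lower in DU145 for 3, CNTN1 (-0.725), ITGB1 (-0.506) and ITGAV (-0.442), where 16.3% of all genes were called.

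The relatives of TRHDE, HMP19, TMEM178B and LGALS1 were counted in the same way. Of 11 M1 peptidases measured beside TRHDE, 1 was higher (ANPEP, 0.72) and 2 lower (ERAP2, -0.78, and LVRN, -0.65) with PAGE4 under PBS in 22RV1, with 8 and 12 reads behind the ANPEP value. Under H2O2, 0 were higher and 2 lower, ANPEP (-0.995) and ENPEP (-0.60). Past 1.5-fold were 19.7% of all genes under PBS and 23.2% under H2O2. With H2O2, 3 of the 11 tested fell, ENPEP, ERAP1 and LNPEP, where 20.1% of all genes were called. NSG1 and CALY, the 2 relatives of HMP19, differed by between -0.22 and 0.29 in 22RV1, and the 1 relative of TMEM178B, TMEM178A, had 15 to 31 reads there. Of the galectins beside LGALS1, LGALS4 was lower with PAGE4 in 22RV1 (-1.33 and -0.83), LGALS3 was at 1603 to 1847 reads in DU145 and at 15 to 109 in 22RV1, and LGALS8 rose with H2O2 (0.33, adjusted p = 0.046).

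Likeness of pattern was measured as Pearson's r of log2 normalized counts, centred within each line, over the 8 libraries among 12322 genes with a mean of at least 50 in each line. The 2 genes most like each member were HERC5 (0.993) and NCOA2 (0.978) for CYP4F8, EFNA2 (0.992) and RNF103 (0.972) for AGR2, and WRNIP1 (0.987) and DKC1 (0.977) for TNC. For TMEM178B they were SCRN1 (0.993) and UBE2E3 (0.982), for HMP19 RPL23AP82 (0.985) and COPZ2 (0.973), and for TRHDE GALT (0.986) and MFSD4 (0.981). SLC7A5 (0.987) and BMPR1B (0.974) were nearest to SLC7A8, and CRYGS (0.967) and LRRC61 (0.966) to LGALS1. These are the highest of many values over 8 points that share libraries and depth, and for the 6 genes near 0 in DU145 the DU145 points hold 0 to 15 reads each, so that part of r follows single reads. RNF103 counts in 22RV1 were 5242, 4239, 1318 and 1334, so both PAGE4 libraries were low as for AGR2.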

How the data were processed

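RNA-seq libraries of 22RV1 and DU145 cells, 1 per condition, were analysed. Per the labels and methods, HISAT2 2.1.0 aligned the reads to GRCh38 and featureCounts 1.6.0 assigned them to genes. The authors deposited unnormalized counts, 1 table for each line, with 26 symbols turned into dates. The annotation and strand setting are not given in the sources used here. For extraction the labels give Trizol, and the study's methods a column kit.

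Counts were divided by DESeq2 1.42.0 size factors within a line, 0.5 was added for log2 fold changes, and genes with a mean of at least 10 in the line were counted past 1.5-fold. Intervals for pairs are 95% Clopper-Pearson. H2O2 and line effects were tested with edgeR 4.0.16 (quasi-likelihood, TMM, filterByExpr, Benjamini-Hochberg, limit 0.05) in R 4.3.3, tested on simulated data. Coordinates are from GENCODE 44. Members and gene lists were chosen with earlier results of these data known. Named are all members, listed relatives with a mean of at least 10 in a line, the 2 nearest measured genes on each side and overlapping genes, and the 2 genes of highest r. FLNA and VIM come from marker lists and were picked with their values known. Alternatives were other size factors, TMM or total counts, a pseudocount of 1, no minimum or 50, a 2-fold limit, DESeq2's Wald test, no filter, other blocks and each pair left out. The paper's other assays were not analysed here, and 1 luminal marker is not reported by name.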

Additional observations from a re-analysis of the deposited data

Results flagged for a closer look

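The H2O2 effect on TNC differed between the lines by 3.26 on the log2 scale (DU145 minus 22RV1) in edgeR's test of the difference itself, with both DU145 cultures above 0 and both 22RV1 cultures below 0. The call was made in 7 of 7 alternatives, at 3.19 to 3.38.

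The H2O2 effect on SLC7A8 differed by 2.23 in the same test (adjusted p = 0.037). It rests on 3 and 15 reads in DU145 vector cells and 6 and 9 in DU145 PAGE4 cells, and the call was made in 5 of 7 alternatives, with adjusted p-values up to 0.324. SLC7A8 passed the low-count filter only through 22RV1, so no line difference is read from this call.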

How the results depend on the processing

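Calls common to the cultures with H2O2 numbered 4506 and ran from 1974 to 3880 when 1 pair was left out. They were 2281 without the 22RV1 vector pair, 2268 without the DU145 PAGE4 pair and 1974 without the DU145 vector pair. Calls of a difference between the lines numbered 3655 and ran from 2121 to 4252, with 2121 and 2320 without the DU145 PAGE4 and DU145 vector pairs. In DU145, with no count minimum 5 of 7 members were past 1.5-fold under PBS and 4 of 7 under H2O2. Of all 35707 genes in that setting, 13840 and 14226 were past it. Members other than TNC and LGALS1 hold 15 reads or fewer in each DU145 library, so nothing is read from those counts. With a 2-fold limit it was 0 and 0 of 2 members. All genes past the limit numbered 3990, 4699, 2768 and 2751 in the 4 pairs (22RV1 PBS and H2O2, DU145 PBS and H2O2), against 15768, 16532, 13840 and 14226 with no minimum, 1215, 1770, 645 and 607 with a mean of at least 50 and 1853, 2126, 1115 and 1160 over 2-fold. With the cell line as the block, CYP4F8, TMEM178B and LGALS1 lost their H2O2 calls by edgeR (adjusted p = 0.179, 0.434 and 0.116). With no filter, TNC and TRHDE were called (0.0246 and 0.0297), and the cause was not tested. LGALS1 lost its line call with no block (0.182) and in the PAGE4 libraries alone, an alternative chosen after seeing the data (0.204). No member changed sign in 80 checks of PAGE4 against vector with other scalings or a pseudocount of 1. The members were chosen on this contrast and these settings rescale the same counts, so nothing is read from those checks. Where a library holds 3 reads of a gene or fewer, as CYP4F8 and SLC7A8 in DU145 vector cells with PBS, a ratio is known only within its wide counting interval.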
